A study of Mus musculus with 2 samples.

Results

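The genes described here are 5 ligands and 2 secreted antagonists of the bone morphogenetic protein (BMP) pathway, Bmp2, Bmp4, Bmp5, Bmp6, Bmp7, Grem1 and Chrdl1. They are 7 of the 32285 genes of the count matrices and were chosen by name. Each was followed through the cells of a mouse bowel surgery model, by cell type and library. Fibroblasts were also divided by whether a cell held RNA of Adamdec1, Pi16 or Inmt, genes commonly used to mark lamina propria, adventitial progenitor-like and adipose-associated fibroblasts.

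One library came from mice after colotomy, a surgical opening of the colon, and the other from mice after sham surgery. All mice had the genotype B6/C57, were 8 to 12 weeks old and were sampled on postoperative day 14 (POD 14). In each library, digested bowel and mesenteric adipose tissue (MAT) were pooled, all cell types together, under 2 hashtag antibodies. How many mice entered a library is not given in the labels, and each group is 1 library. No test of colotomy against sham was therefore possible, and every interval below is a 95% interval that covers counting error only.

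BMP ligands bind paired type I and type II receptor kinases, which phosphorylate SMAD1, SMAD5 and SMAD9. These enter the nucleus with SMAD4 and induce, among other genes, the Id genes. In the intestine BMP signalling is strongest toward the crypt mouth, where subepithelial fibroblasts known as telocytes make ligands, and it restrains stem cells and favours epithelial differentiation. Fibroblasts and muscle beneath the crypt secrete antagonists such as gremlin 1, the product of Grem1, which bind ligands and keep them from their receptors.

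Promoter sequences are printed for the antagonist Grem1 and the ligands Bmp4 and Bmp5, the genes on which the fibroblast results turn. Each is the RefSeq sequence of build GRCm38.p6 from 250 bases before to 50 bases after the start site, 300 bases in all, written 5′ to 3′ along the gene's strand. RefSeq entries in the table used matched 4 of the 7 genes, the fourth being Bmp6. Both strands were searched for GGCGCC, a GC-rich box bound by SMAD proteins, TGTTTAC, a forkhead core, and TATAAA, the TATA box, and matches are in capitals.
Grem1, chr2:113758599-113758898, minus strand: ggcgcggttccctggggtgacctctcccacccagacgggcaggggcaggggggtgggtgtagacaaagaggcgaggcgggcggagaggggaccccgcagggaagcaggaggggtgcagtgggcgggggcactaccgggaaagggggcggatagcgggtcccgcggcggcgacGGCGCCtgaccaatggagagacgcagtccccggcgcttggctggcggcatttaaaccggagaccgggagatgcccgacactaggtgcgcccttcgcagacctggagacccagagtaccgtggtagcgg
Bmp4, chr14:46390620-46390919, minus strand: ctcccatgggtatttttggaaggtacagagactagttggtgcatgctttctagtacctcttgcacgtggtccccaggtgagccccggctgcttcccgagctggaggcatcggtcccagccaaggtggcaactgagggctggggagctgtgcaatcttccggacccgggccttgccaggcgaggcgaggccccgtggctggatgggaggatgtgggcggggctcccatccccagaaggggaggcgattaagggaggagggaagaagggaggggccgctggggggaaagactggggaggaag
Bmp5, chr9:75775115-75775414, plus strand: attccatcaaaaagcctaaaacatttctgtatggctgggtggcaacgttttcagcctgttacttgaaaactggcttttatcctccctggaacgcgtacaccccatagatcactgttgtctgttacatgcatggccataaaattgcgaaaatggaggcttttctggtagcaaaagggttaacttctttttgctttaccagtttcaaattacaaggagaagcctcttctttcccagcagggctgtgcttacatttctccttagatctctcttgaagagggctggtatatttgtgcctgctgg

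The Grem1 promoter held 1 match, GGCGCC at position -78 from the start site, and 28 CpG dinucleotides in a sequence of 70.7% G and C. The Bmp4 promoter was 64% G and C with 12 CpG, and that of Bmp5 was 43.3% with 4 CpG. Bmp6, whose window lies at chr13:38345466-38345765 on the plus strand, had 69.3% and 27 CpG. Neither these nor Bmp4 and Bmp5 held any of the 3 motifs. Over 32544 promoters of the same length, 11.9% held GGCGCC, 3.66% TGTTTAC and 13.6% TATAAA, and the medians were 53% G and C and 7 CpG. The promoter of Bmp5 was thus poorer in G and C than the median promoter, and those of Grem1, Bmp4 and Bmp6 were richer.

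In the GRCm38 annotation (GENCODE), Grem1 spans chr2:113746164-113758646 on the minus strand, Bmp2 chr2:133552159-133562885 on the plus strand and Bmp7 chr2:172868012-172940321 on the minus strand. Bmp5 spans chr9:75775364-75900310 on the plus strand, Bmp6 chr13:38345107-38500302 on the plus strand, Bmp4 chr14:46383520-46390669 on the minus strand and Chrdl1 chrX:143285674-143394262 on the minus strand. All 7 are protein-coding and carry the same gene IDs in the files. Bmp4, Bmp5 and Bmp6 overlap other annotated genes, Bmp4 and Bmp6 only ones on the opposite strand and Bmp5 both Gm47723 on its own strand and Gm26903 opposite. Whether counting used strand is not given in the sources used here, so reads of these neighbours cannot be told apart from those of the members.

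The colotomy library kept 9246 of 15547 barcodes and the sham library 42143 of 44814, with medians of 778.5 and 1328 unique molecular identifiers (UMIs, 1 per captured RNA molecule) per cell. Of the kept barcodes, 108 occurred in both libraries. Clusters computed without the 7 genes and the other pathway and niche genes, 72 in all, gave 13 classes named from fixed markers, each written with "-like". The fibroblast-like class held 3543 colotomy and 5129 sham cells, with medians of 713 and 1530 UMIs. Different clusters hold most of it in each library. A cluster led by Ptn, Col1a1 and Timp1 had 2281 colotomy and 186 sham cells, and a cluster led by Clec3b and Gsn had 1262 colotomy and 4943 sham cells. The first is mostly 1 library and may be that library and not a type of fibroblast. The libraries also stood apart in Xist, the RNA of the inactive X chromosome, at 492 CPM in colotomy and 1.58 CPM in sham fibroblast-like cells. CPM is a gene's UMI count scaled to a fixed total of UMIs of the same cells (counts per 1000000). RNA of 4 Y-linked genes was present in both, at 165 and 208 CPM, so results are also given for the 391 colotomy and 1487 sham fibroblast-like cells with Y-linked RNA and no Xist. The colotomy library thus seems to hold cells of both sexes and the sham library cells of males. Sex cannot be told apart from surgery in ratios over all cells of a class, including those of the X-linked Chrdl1.

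The fibroblast-like class was named from 8 fibroblast markers, so their levels are no separate check of the label. All 8 were above 0 in both libraries, as they were in epithelial-like and goblet-like cells. Their summed level in fibroblast-like cells was 44161.5 CPM after colotomy and 19049 CPM after sham. Markers of other cell types were present at lower levels and differed between the libraries. All 5 neutrophil markers were above 0 in both, summing to 1936 CPM in colotomy and 78.0 CPM in sham fibroblast-like cells, and all 6 macrophage markers summed to 371 and 143 CPM. The 8 smooth muscle markers summed to 466 CPM in colotomy and 145 CPM in sham cells, and the 6 pericyte markers to 85.8 and 42.9 CPM. The 5 B cell markers summed to 303 CPM in colotomy and 1307 CPM in sham cells. The 4 mast cell markers were all at 0 in colotomy and summed to 8.69 CPM in sham cells. The part of these other cells in the differences below was not tested.

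Bmp2, a ligand known from bone formation and from the upper crypt, had its highest whole-class level in smooth muscle-like cells of both libraries. In colotomy that lead rests on 3 UMIs, with an interval that overlapped those of vascular endothelial-like and macrophage-like cells. Sham fibroblasts with RNA of Adamdec1 alone, a part of their class, reached 95.3 CPM (65.6 to 133.8). Smooth muscle-like cells had 61.7 CPM of Bmp2 on 3 UMIs after colotomy (12.7 to 180.3) and 44.0 CPM on 25 UMIs after sham (28.5 to 65.0). The class also carried all 6 pericyte markers, summing to 4956 CPM in colotomy and 1943 CPM in sham, so muscle and pericytes are not separated in it. With finer clusters a class of that name held 158 colotomy and 1001 sham cells, and with coarser clusters none was named. Macrophage-like cells had 18.1 CPM in colotomy and 13.7 CPM in sham, and epithelial-like cells 9.91 CPM in colotomy and 11.3 CPM in sham. Fibroblast-like cells had 4.13 CPM in colotomy (12 UMIs, 2.14 to 7.22) and 11.8 CPM in sham (105 UMIs, 9.69 to 14.3). In sham the intervals of macrophage-like, fibroblast-like, mesothelial-like and epithelial-like cells overlapped, so their order is not resolved. In colotomy the fibroblast-like level lay below the 8.52 CPM of the pooled epithelial-like, goblet-like and immune classes, where free RNA can supply UMIs, and below the 16.2 CPM of T and B cell-like cells alone. That pool holds the macrophage-like and epithelial-like cells given above, and the T and B cell-like level rests on 1 UMI in each class. The fibroblast-like level of Bmp2 in colotomy therefore cannot be told apart from background.

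Bmp4, a ligand made by the stroma beneath the gut epithelium, was found in mesothelial-like, fibroblast-like and smooth muscle-like cells of both libraries. Mesothelial-like cells had 162.6 CPM in colotomy (24 UMIs, 104 to 242) and 80.5 CPM in sham (104 UMIs, 65.7 to 97.5). Fibroblast-like cells had 58.2 CPM in colotomy (169 UMIs, 49.8 to 67.7) and 54.4 CPM in sham (482 UMIs, 49.6 to 59.5). The mesothelial-like level was above the fibroblast-like one in both libraries with intervals that did not overlap. Smooth muscle-like cells had 41.1 CPM on 2 UMIs in colotomy and 61.6 CPM on 35 UMIs in sham, with intervals that overlapped those of fibroblast-like cells. Vascular endothelial-like cells, whose leading genes include the lymphatic genes Ccl21a and Mmrn1, had 34.7 CPM in colotomy and 18.3 CPM in sham. The other 9 classes reached at most 4.21 CPM in sham, and at most 66.5 CPM on 4 UMIs of erythroid-like cells in colotomy.

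Bmp5, a ligand of the BMP5, BMP6 and BMP7 subgroup, lay mainly in smooth muscle-like and fibroblast-like cells. Smooth muscle-like cells had 20.6 CPM on 1 UMI in colotomy and 38.7 CPM on 22 UMIs in sham (24.3 to 58.6). Fibroblast-like cells had 1.72 CPM on 5 UMIs in colotomy (0.559 to 4.02) and 10.7 CPM on 95 UMIs in sham (8.67 to 13.1), so the sham intervals of the 2 classes did not overlap. Only 9 UMIs of Bmp5 fell in the named classes of the colotomy library, against 168 in those of the sham library.

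Bmp6, known for its role in liver iron sensing and made by endothelium, was shared by stroma and vessels. Mesothelial-like cells had 27.1 CPM in colotomy (4 UMIs, 7.38 to 69.4) and 10.8 CPM in sham (14 UMIs, 5.92 to 18.2). Fibroblast-like cells had 18.9 CPM in colotomy (14.3 to 24.7) and 13.3 CPM in sham (11.02 to 15.95). Vascular endothelial-like cells had 6.93 CPM on 1 UMI in colotomy and 21.4 CPM on 35 UMIs in sham (14.9 to 29.8). Smooth muscle-like cells had 20.6 CPM on 1 UMI in colotomy and 7.04 CPM on 4 UMIs in sham (1.92 to 18.03). In sham these 4 classes had intervals that overlapped from one to the next. The other 9 classes had at most 3.10 CPM in colotomy and 2.11 CPM in sham.

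Bmp7, a ligand required for kidney development and also made by epithelia, was found in goblet-like, fibroblast-like and mesothelial-like cells. Goblet-like cells had 10.8 CPM in colotomy (15 UMIs, 6.07 to 17.9) and 11.2 CPM in sham (38 UMIs, 7.92 to 15.4). Fibroblast-like cells had 7.58 CPM in colotomy (22 UMIs, 4.75 to 11.5) and 9.48 CPM in sham (84 UMIs, 7.56 to 11.7). The intervals of these 2 classes overlapped in both libraries. Mesothelial-like cells had 0 UMIs in colotomy, with an interval up to 25.0 CPM, and 9.28 CPM on 12 UMIs in sham (4.80 to 16.2). That sham interval overlapped those of both other classes in sham. T cell-like cells had 21.7 CPM on 1 UMI in colotomy and 4.55 CPM on 35 UMIs in sham. The pooled epithelial-like, goblet-like and immune classes had 4.06 CPM in colotomy and 2.75 CPM in sham. T and B cell-like cells together had 8.09 CPM in colotomy, on 1 UMI, and 2.37 CPM in sham. The colotomy fibroblast-like level, taken over the whole class, was above the pooled level but not above that of T and B cell-like cells. The pool holds goblet-like cells, where Bmp7 was found, and the T and B cell-like level rests on 1 UMI. Whether the whole-class level lies above background is therefore not resolved.

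Grem1, the antagonist of BMP2, BMP4 and BMP7, was high in smooth muscle-like and fibroblast-like cells in colotomy, and highest in fibroblast-like cells in sham. Fibroblast-like cells had 211 CPM in colotomy (611 UMIs, 194 to 228) and 60.6 CPM in sham (537 UMIs, 55.6 to 65.9). Smooth muscle-like cells had 267 CPM in colotomy (13 UMIs, 142 to 457) and 17.6 CPM in sham (10 UMIs, 8.44 to 32.4). The class held only 64 colotomy cells against 356 sham cells, and its 8 fibroblast markers summed to 4751 CPM in colotomy and 2591 CPM in sham, so no ratio was read from it. The 9 epithelial, immune and erythroid classes had 8.19 to 33.2 CPM in colotomy and at most 3.64 CPM in sham. Fibroblast-like cells held 84.2% of the Grem1 UMIs of the named classes in colotomy and 76.1% in sham.

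Chrdl1, which encodes chordin-like 1, a BMP4 antagonist, was highest in smooth muscle-like cells, a class that also carried pericyte markers. Smooth muscle-like cells had 41.1 CPM on 2 UMIs in colotomy and 84.5 CPM on 48 UMIs in sham (62.3 to 112). Mesothelial-like cells had 0 UMIs in colotomy and 40.2 CPM on 52 UMIs in sham (30.0 to 52.8). Fibroblast-like cells had 9.99 CPM in colotomy (29 UMIs, 6.69 to 14.4) and 9.14 CPM in sham (81 UMIs, 7.26 to 11.4). The sham levels of smooth muscle-like, mesothelial-like and fibroblast-like cells had intervals that did not overlap. Outside these classes and endothelium the gene reached at most 2.79 CPM in colotomy and 1.18 CPM in sham.

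**Figure D1:**
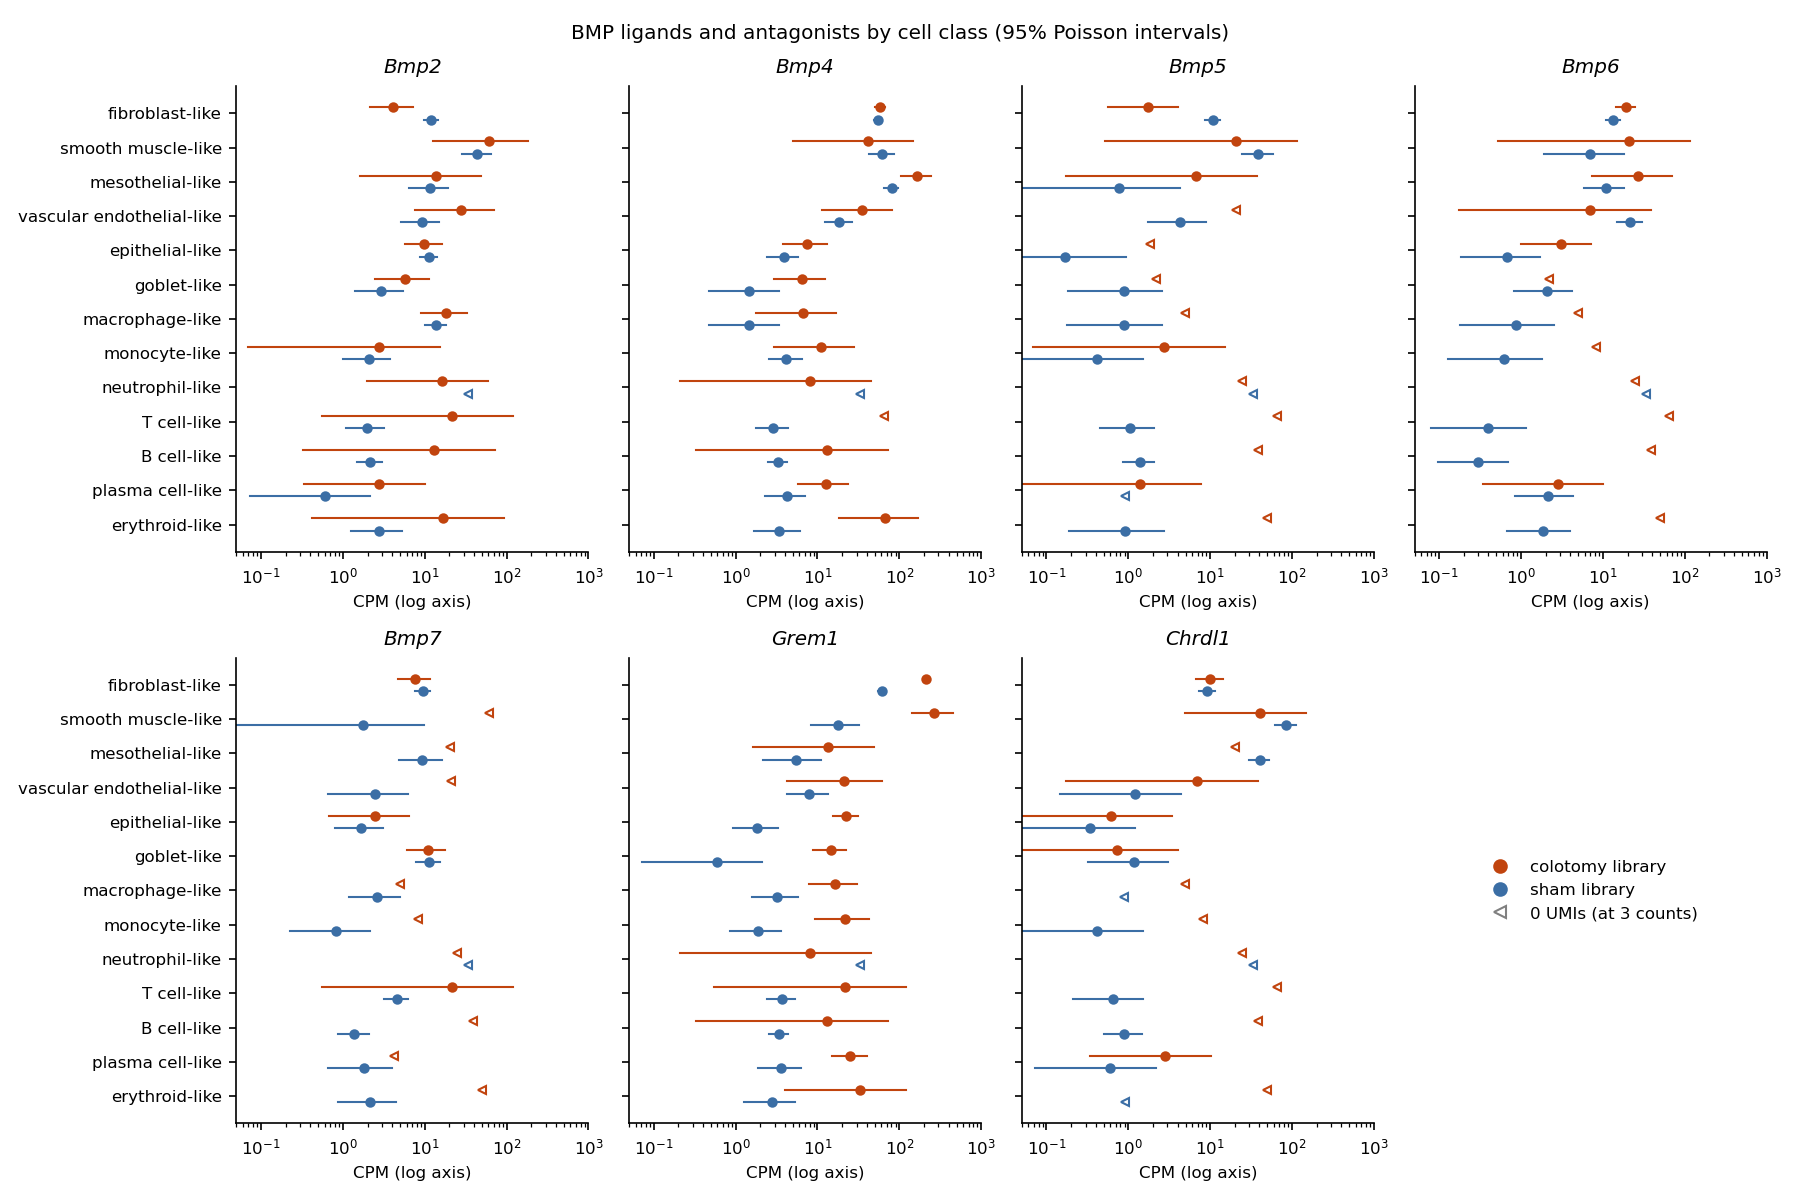
Level of each of the 7 genes (CPM of class UMIs, log axis) in each named cell class, colotomy and sham side by side, with bars for 95% Poisson intervals on counts of 1 library each. Grem1 stands at 211 CPM in colotomy and 60.6 CPM in sham fibroblast-like cells, and Bmp4 is higher in mesothelial-like than in fibroblast-like cells in both libraries.

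In fibroblast-like cells the antagonist Grem1 was higher in colotomy and the ligands Bmp5 and Bmp2 were lower. Grem1 was 3.47-fold higher in colotomy than in sham (3.09 to 3.91), a log2 ratio of 1.80. Bmp5 had a log2 ratio of -2.64 (-4.29 to -1.36) and Bmp2 one of -1.52 (-2.52 to -0.65). The colotomy level of Bmp2 could not be told apart from background. Of the 7 genes, 1 was at least 1.5-fold higher and 2 at least 1.5-fold lower. Over the 14451 genes with at least 10 UMIs, 17.7% were at least 1.5-fold higher and 19.3% at least 1.5-fold lower, so the counts by themselves are near the background.

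The other 4 genes lay nearer to equal levels. The log2 ratio of Bmp4 was 0.10 (-0.16 to 0.35) and that of Chrdl1 0.13 (-0.54 to 0.76). Bmp6 had 0.51 (0.02 to 0.98), or 1.42-fold, and Bmp7 -0.32 (-1.07 to 0.37). Only the interval of Bmp6 left out 0 among these, and only just.

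**Figure D2:**
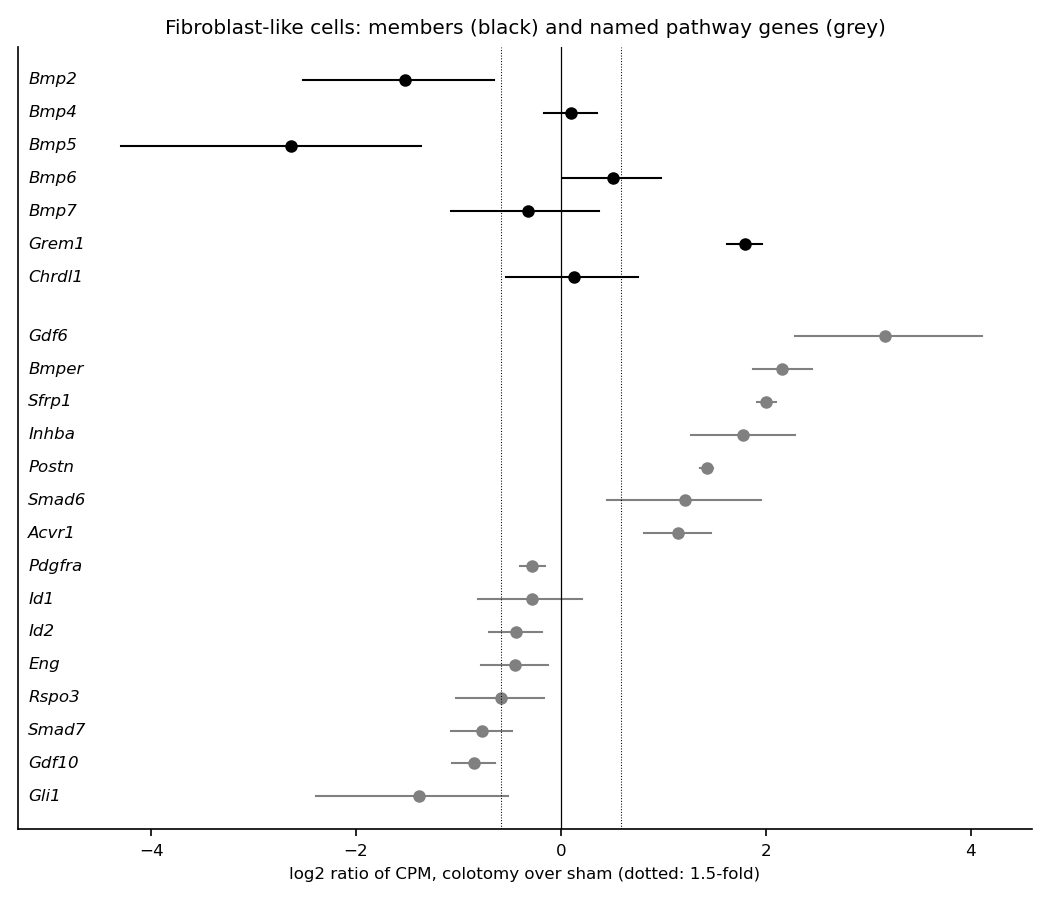
Log2 ratio of colotomy over sham in fibroblast-like cells for the 7 genes (black) and 15 named genes of the pathway lists (grey), with 95% intervals on counts, 1 library per group. Grem1 lies at 1.80 and Bmp5 at -2.64, and among the 15 others Gdf6 lies highest at 3.16 and Gli1 lowest at -1.39.

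The share of cells with Grem1 RNA was also higher in colotomy once depth was made equal. With each cell thinned to 1000 UMIs, Grem1 was detected in 10.8% of 705 colotomy fibroblast-like cells (8.59% to 13.3%) and in 3.63% of 4182 sham cells (3.09% to 4.25%). The unthinned shares were 9.06% and 5.05%, and thinning left out 2838 colotomy and 947 sham cells with fewer UMIs. Among thinned T and B cell-like cells, which should lack the gene, Grem1 was seen in 0 of 14 colotomy cells, with an interval up to 23.2%, and in 0.288% of 11443 sham cells. Median depths before thinning were 1242 UMIs in colotomy and 1704.5 in sham fibroblast-like cells, and 1329 and 1394 in the T and B cell-like cells. Bmp5 was detected in 0.142% of colotomy cells (1 cell) and 0.741% of sham cells, with 0.0699% in sham T and B cell-like cells. Bmp4 was detected in 3.83% of colotomy and 4.62% of sham cells. The shares of Bmp2 at 1000 UMIs were 0.709% in colotomy (5 cells) and 0.717% in sham and gave no order. At 500 UMIs, where no cell was left out, they were 0.141% in colotomy (0.0458% to 0.329%) and 0.546% in sham (0.363% to 0.788%), lower in colotomy as in CPM.

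Fibroblasts were next divided by the 3 state genes. Cells with RNA of Adamdec1 alone were 47 of 3543 in colotomy, or 1.33% (0.976% to 1.76%), and 218 of 5129 in sham, or 4.25% (3.71% to 4.84%). Cells with Pi16 alone were 1066 (30.1%) in colotomy and 1650 (32.2%) in sham, and those with Inmt alone 34 (0.960%) in colotomy and 543 (10.6%) in sham. A further 34 colotomy and 187 sham cells held more than 1 of the 3, and 2362 (66.7%) colotomy and 2531 (49.3%) sham cells held none. Adamdec1 was seen in 0.568% of colotomy and 0.788% of sham T and B cell-like cells, Pi16 in 1.14% and 0.853%, and Inmt in 0% and 0.296%. At equal depth Adamdec1 was detected in 1.42% of colotomy and 3.85% of sham fibroblast-like cells, Inmt in 0.567% and 9.37% and Pi16 in 31.1% and 28.5%. A cell without a UMI of a gene may still express it, so the group with none of the 3 is mixed.

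In the sham library the Adamdec1 cells were the richest fibroblasts in BMP ligands. Bmp5 was at 214 CPM in them against 2.96 CPM in cells with none, 72.2-fold higher (38.9 to 146), and these 218 cells held 74 of the 95 Bmp5 UMIs of sham fibroblasts, or 77.9%. Bmp4 was at 462 CPM in Adamdec1 cells against 46.4 CPM in cells with none, a log2 ratio of 3.32 (3.003 to 3.63). Bmp2 was at 95.3 CPM in Adamdec1 cells and 7.15 CPM in cells with none (log2 ratio 3.73, 2.97 to 4.51), and Bmp7 at 43.3 and 3.70 CPM (3.55, 2.41 to 4.68). Bmp6 was at 34.6 CPM in Adamdec1 cells and 9.87 CPM in cells with none (1.81, 0.75 to 2.77). Grem1 was at 173 CPM in Adamdec1 cells against 89.6 CPM in cells with none, with a smaller log2 ratio of 0.95 (0.53 to 1.35). All 6 of these genes were at least 1.5-fold higher and Chrdl1, on 1 UMI, at least 1.5-fold lower, where 15.9% of all tested genes were at least 1.5-fold higher and 23.7% at least 1.5-fold lower.

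Other genes named for the subepithelial telocyte differed in direction in the same sham cells. Sox6, a transcription factor of telocytes, was at 23.1 CPM on 8 UMIs, with a log2 ratio over cells with none of 2.96. Bmp3, a divergent BMP-type ligand, was at 17.3 CPM on 6 UMIs (2.55), and the forkhead gene Foxl1 had 3 of its 4 UMIs there. F3, which encodes tissue factor, was lower, at 34.6 CPM on 12 UMIs in Adamdec1 cells and 70.1 CPM in cells with none (-1.02, -1.99 to -0.19). Wnt5a, a WNT ligand, was at 104 CPM on 36 UMIs in Adamdec1 cells and 134 CPM in cells with none (-0.37, -0.90 to 0.12). Cd81, a marker of sub-crypt fibroblasts, was at 101 CPM with a log2 ratio of -1.79, and Gdf10 at 8.66 CPM on 3 UMIs with -4.17. These genes were on lists made with earlier results of these data known.

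The colotomy library had only 47 Adamdec1 cells, and most members rested on 1 UMI in them. Bmp4 was at 386 CPM on 15 UMIs in Adamdec1 cells against 63.4 CPM in cells with none, a log2 ratio of 2.60 (1.72 to 3.38). Grem1 was at 437 CPM on 17 UMIs in Adamdec1 cells against 263 CPM in cells with none (0.73, -0.06 to 1.43). Bmp2, Bmp5, Bmp6 and Chrdl1 had 1 UMI each, or 25.7 CPM, and Bmp7 had 0 of 38893 UMIs, with an interval up to 94.8 CPM. All 4 members that had 10 or more UMIs in the combined groups of cells were at least 1.5-fold higher, 2 of them on 1 UMI, where 33.9% of all tested genes were.

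In both libraries Pi16 cells had more Bmp7, Bmp6 and Chrdl1 and less Bmp4 and Grem1 than cells with none. In sham, Bmp7 and Bmp6 were thus above cells with none in Adamdec1 and Pi16 cells alike. Bmp7 was at 19.6 CPM in Pi16 cells and 2.11 CPM in cells with none in colotomy (log2 ratio 3.21, 1.61 to 5.24), and at 15.7 and 3.70 CPM in sham (2.09, 1.23 to 3.02). Pi16 cells held 18 of 22 Bmp7 UMIs of colotomy fibroblasts, or 81.8%, and 51 of 84 of sham fibroblasts, or 60.7%. Bmp6 had log2 ratios of 1.43 (0.59 to 2.28) in colotomy and 0.75 (0.14 to 1.38) in sham. Chrdl1 had 1.15 (-0.05 to 2.36) in colotomy and 0.71 (-0.07 to 1.502) in sham, so its intervals include 0.

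Bmp4 and Grem1 were lower in Pi16 cells than in cells with none. Bmp4 was at 32.7 CPM in Pi16 cells and 63.4 CPM in cells with none in colotomy (log2 ratio -0.96, -1.59 to -0.37), and at 19.4 and 46.4 CPM in sham (-1.26, -1.69 to -0.84). Grem1 was at 106 CPM in Pi16 cells and 263 CPM in cells with none in colotomy (-1.31, -1.64 to -0.997), and at 20.02 and 89.6 CPM in sham (-2.16, -2.57 to -1.78). Both genes were therefore lower by more than counting error in each library. In colotomy 3 of 6 members measured were at least 1.5-fold higher and 3 at least 1.5-fold lower, where 9.07% of genes were higher and 12.8% lower. In sham 3 of 7 were higher and 3 lower, where 5.83% of genes were higher and 9.49% lower. Among colotomy cells with Y-linked RNA and no Xist, the ratios of Bmp4, Bmp6 and Chrdl1 had the other sign, at 0.22, -0.13 and -1.45. All fibroblast-like cells of that kind held only 18, 6 and 6 UMIs of these genes in colotomy. No interval is given for these ratios, so no reversal is read from them.

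Inmt cells were more numerous in sham. There Chrdl1 was at 16.3 CPM in Inmt cells against 6.41 CPM in cells with none (14 UMIs, log2 ratio 1.34, 0.29 to 2.33) and Grem1 at 31.3 against 89.6 CPM (-1.51, -2.14 to -0.95). Bmp4 was at 48.8 CPM in Inmt cells and 46.4 CPM in cells with none, a log2 ratio of 0.07 (-0.45 to 0.56). Of the 7 members 1 was at least 1.5-fold higher and 4 at least 1.5-fold lower, where 8.59% of genes were higher and 13.4% lower. Among the 4 lower, only the interval of Grem1 left out 0. Bmp5 and Bmp7 rested on 1 UMI each in Inmt cells (-6.77 to 1.41 and -7.07 to 1.03) and Bmp6 on 4 UMIs (-3.03 to 0.38). The higher level of Chrdl1 did not hold where 2 UMIs of a state gene were required, at a log2 ratio of -0.79. Gdf10, a BMP-type ligand also known as BMP3B, was at 328 CPM in Inmt cells with a log2 ratio over cells with none of 1.08. The 34 colotomy Inmt cells held 0 Grem1 UMIs. With 0 set at 3 counts the log2 ratio over cells with none was -1.27, and its interval reached up to -0.97.

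**Figure D3:**
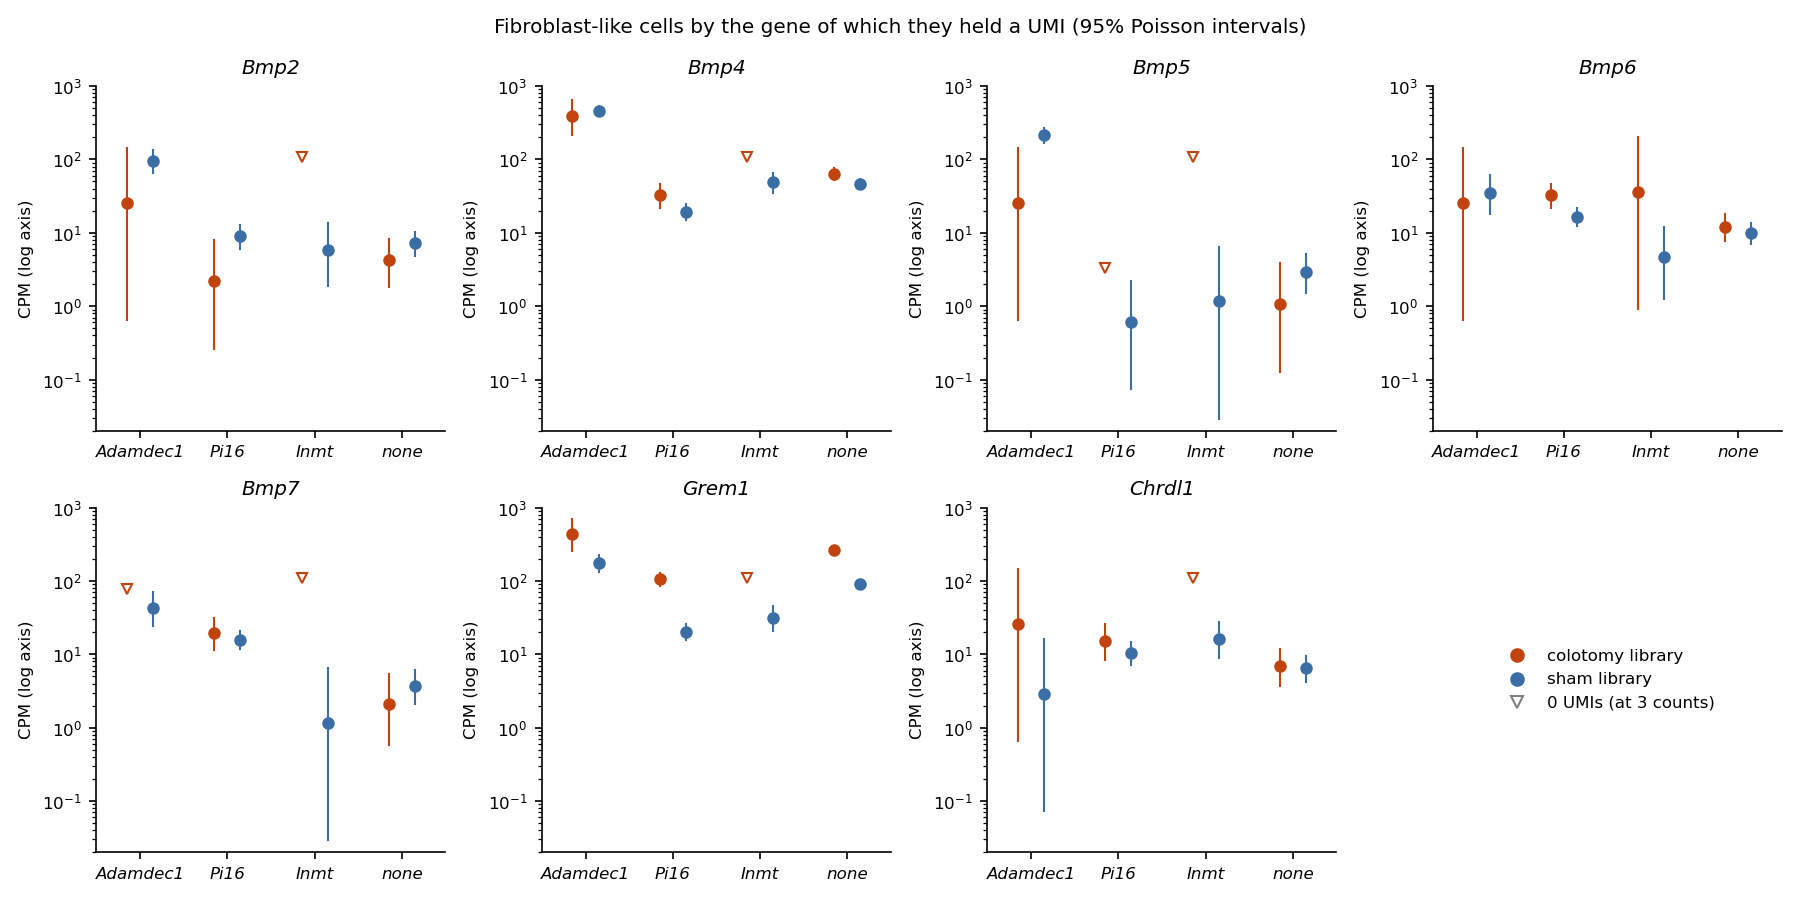
Level of each of the 7 genes (CPM, log axis) in fibroblast-like cells with RNA of Adamdec1, Pi16 or Inmt alone, or none, for colotomy and sham, with 95% Poisson intervals on counts. In sham, Bmp5 stands at 214 CPM in Adamdec1 cells and 2.96 CPM in cells with none, and in both libraries Grem1 is lower in Pi16 cells than in cells with none.

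Pairs of genes were also counted in single cells. In sham, 48 of 61 cells with Bmp5 RNA also held Adamdec1, or 78.7%, against 4.89% of all fibroblast-like cells, and 29 of the 61 held Bmp4. In colotomy 3 of the 5 cells with Bmp5 held Adamdec1. Cells with Bmp7 also held Pi16 in 18 of 21 cells in colotomy (85.7%, against 31.0% of all) and 52 of 80 in sham. Bmp4 and Grem1 RNA met in 41 of 146 Bmp4 cells in colotomy, or 28.1% against 9.06% of all, and in 70 of 370 in sham, or 18.9% against 5.05%. Deeper cells are likelier to show any pair of genes, and depth was not equalised for these shares.

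The ratio of colotomy over sham was then taken within each kind of fibroblast. Grem1 was higher in colotomy in each of the 6 subsets that could be compared. Within Pi16 cells it was at 106 CPM in colotomy and 20.02 CPM in sham, a log2 ratio of 2.40 (1.93 to 2.88). Within cells with none of the 3 genes the ratio was 1.55 (1.35 to 1.75), and within Adamdec1 cells it was 1.34 (0.47 to 2.13). Within the cluster led by Clec3b Grem1 was at 98.0 CPM in colotomy and 58.8 CPM in sham (0.74, 0.40 to 1.06), and within the cluster led by Ptn at 265 and 98.3 CPM (1.43, 0.97 to 1.93). Within cells with Y-linked RNA and no Xist the levels were 297 CPM in colotomy and 51.3 CPM in sham (2.53, 2.16 to 2.90). The size of the difference thus depended on the cells chosen, and it was smallest in the cluster led by Clec3b.

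The Grem1 levels were also set against free RNA and against the mix of fibroblasts by state gene. The pooled epithelial-like, goblet-like and immune classes had 19.3 CPM in colotomy and 2.86 CPM in sham, and with that level subtracted fibroblast-like cells had 191 CPM in colotomy and 57.7 CPM in sham. Applying the make-up of the colotomy fibroblasts by state gene to the sham levels gave 67.9 CPM of Grem1, close to the 60.6 CPM measured in sham and below the 211 CPM in colotomy. That make-up leaves the mixed group with none of the state genes whole. It also does not adjust for the share of the cluster led by Ptn, so the part of the mix beyond the state genes was not tested.

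The ligands behaved differently within subsets. Bmp5 had 1 UMI in colotomy and 74 in sham Adamdec1 cells, a log2 ratio of -3.05 (-8.38 to -0.53). In the cluster led by Clec3b it had 2.11 CPM on 2 UMIs in colotomy and 11.1 CPM in sham (-2.40, -5.47 to -0.51). In cells with Y-linked RNA and no Xist Bmp5 had 0 UMIs in colotomy and 46 in sham. With 0 set at 3 counts the log2 ratio was -0.80, and its interval reached up to -0.45. With the colotomy make-up by state gene, the sham levels gave 5.15 CPM of Bmp5, against 10.7 CPM measured in sham and 1.72 CPM in colotomy. Bmp5 was lower in colotomy in each of these sets, and in the cluster led by Ptn it rested on 3 UMIs in colotomy and 1 in sham.

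Bmp6 and Bmp7 were higher in colotomy within the cluster led by Clec3b. Bmp6 was at 45.3 CPM in colotomy and 13.5 CPM in sham cells of that cluster (log2 ratio 1.75, 1.21 to 2.27), and Bmp7 at 21.1 and 9.93 CPM (1.08, 0.30 to 1.80). In the cluster led by Ptn Bmp6 had 6.14 CPM on 12 UMIs in colotomy and 9.83 CPM on 4 UMIs in sham. Within Pi16 cells Bmp6 had a log2 ratio of 0.97 (0.28 to 1.64) and Bmp4 one of 0.75 (0.07 to 1.40). Bmp4 was near equal in both clusters, at 51.6 CPM in colotomy and 54.0 CPM in sham cells of the one led by Clec3b, and at 61.4 CPM in both libraries in the one led by Ptn. Bmp2 had a log2 ratio of -1.55 (-3.45 to -0.15) in the cluster led by Clec3b, and 8 UMIs in colotomy and 1 in sham in that led by Ptn.

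**Figure D4:**
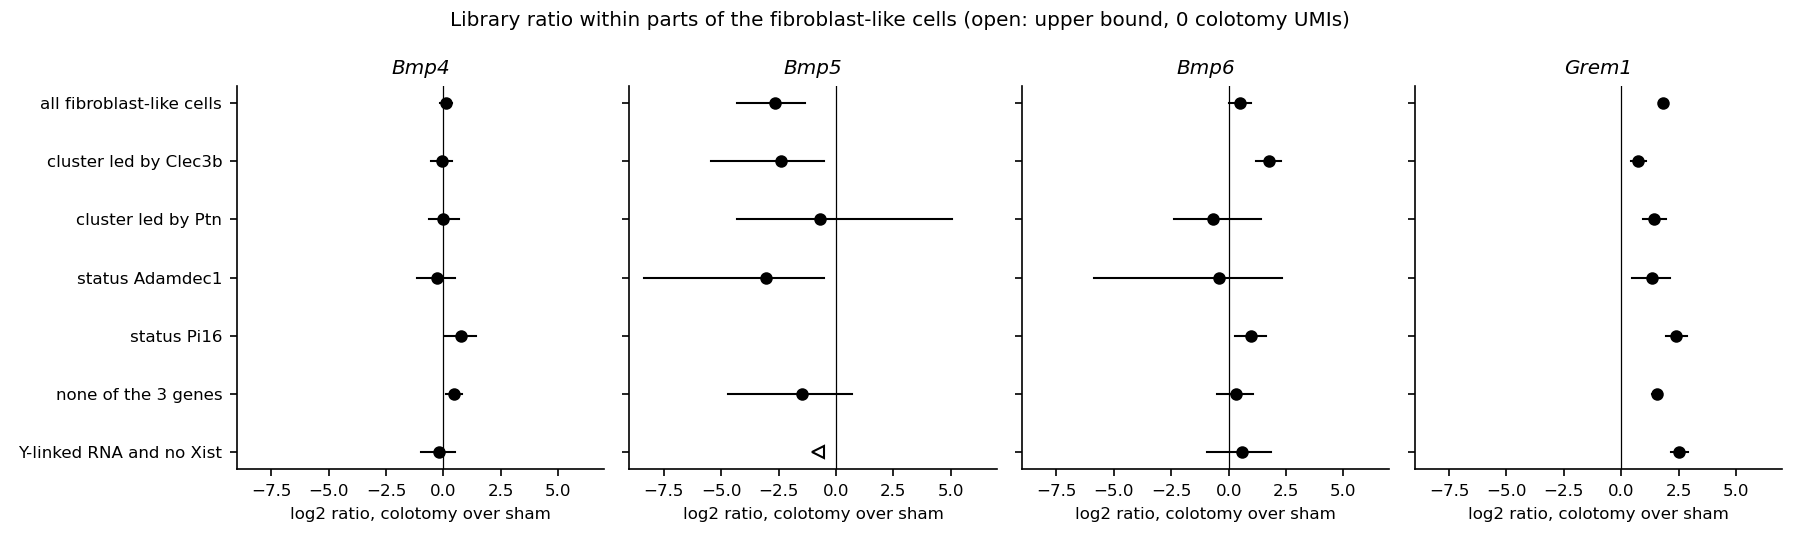
Log2 ratio of colotomy over sham for Bmp4, Bmp5, Bmp6 and Grem1 in all fibroblast-like cells and within state groups, the clusters led by Clec3b and Ptn, and cells with Y-linked RNA and no Xist, with 95% intervals on counts and an open triangle for an upper bound. The Grem1 ratio runs from 0.74 in the cluster led by Clec3b to 2.53 in cells with Y-linked RNA and no Xist.

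Other secreted genes of the pathway were counted in fibroblast-like cells from lists of named genes. Of the other BMP-type ligands, 3 of 5 measured were at least 1.5-fold higher in colotomy and 1 at least 1.5-fold lower, where 17.7% of all genes were higher and 19.3% lower. Gdf6, a ligand of skeletal and eye development, was at 15.2 CPM in colotomy and 1.69 CPM in sham (log2 ratio 3.16, 2.29 to 4.11). Inhba, the activin A subunit, was at 24.8 CPM in colotomy and 7.22 CPM in sham (1.78), and Gdf10 at 75.5 CPM in colotomy and 135.7 CPM in sham (-0.85, -1.06 to -0.64). The median log2 ratio was 0.71 over these 5 and -0.03 over all genes tested.

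Of the other antagonists and modulators, 5 of 12 measured (41.7%) were at least 1.5-fold higher, where 17.7% of all genes were, and none was at least 1.5-fold lower. Bmper, the secreted BMP-binding protein BMPER, was at 85.8 CPM in colotomy and 19.2 CPM in sham (log2 ratio 2.16, 1.87 to 2.45). Also among the 5 were Chrdl2, on 12 UMIs in colotomy and 2 in sham, Fstl1 at 1898 CPM in colotomy and 1099 CPM in sham, and Crim1 at 46.2 CPM in colotomy and 28.8 CPM in sham. Nog, which encodes noggin, had 3 UMIs in colotomy and 7 in sham, and Chrd, which encodes chordin, was at 18.6 CPM in colotomy and 16.2 CPM in sham. The list's median log2 ratio was 0.51.

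Of 11 receptors and co-receptors measured, 2 (18.2%) were at least 1.5-fold higher and none at least 1.5-fold lower, where 17.7% of all genes were higher and 19.3% lower. They were Acvr1, a type I receptor, at 46.5 CPM in colotomy and 21.1 CPM in sham, and Neo1, a receptor of repulsive guidance molecules, at 61.0 CPM in colotomy and 34.8 CPM in sham. The type I receptor Bmpr1a was at 100.3 CPM in colotomy and 79.7 CPM in sham (log2 ratio 0.33, 0.13 to 0.53), and the type II receptor Bmpr2 at 176 and 136 CPM (0.37, 0.22 to 0.52). Eng, the co-receptor endoglin, was at 33.8 CPM in colotomy and 45.9 CPM in sham (-0.44, -0.78 to -0.12).

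Of the 6 SMAD genes 3 were at least 1.5-fold higher and 2 at least 1.5-fold lower, where 17.7% and 19.3% of all genes were. Smad1, a mediator, was at 109 CPM in colotomy and 51.3 CPM in sham (1.09, 0.88 to 1.30) and Smad5, also a mediator, at 106 and 69.8 CPM (0.60, 0.40 to 0.80). The inhibitory Smad6 was at 9.65 CPM in colotomy and 4.18 CPM in sham (1.21), while Smad7, also inhibitory, was at 38.6 CPM in colotomy and 65.9 CPM in sham (-0.77, -1.08 to -0.48). The other lower gene, Smad9, rested on 4 UMIs in colotomy and 19 in sham, with an interval of -2.65 to 0.95.

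Target genes, which respond to SMAD signalling in many tissues, differed in direction. Id1 was at 14.8 CPM in colotomy and 18.1 CPM in sham (-0.29, -0.81 to 0.21), Id2 at 53.4 and 72.2 CPM (-0.44, -0.70 to -0.18) and Id3 at 160 and 148 CPM (0.12, -0.04 to 0.27). Id4 was at 23.1 CPM in colotomy and 11.1 CPM in sham (1.06, 0.59 to 1.52), and it and Msx1, at 8.96 CPM in colotomy and 4.74 CPM in sham, were the 2 of 7 measured that were at least 1.5-fold higher. None was at least 1.5-fold lower, and the list's median log2 ratio was 0.12. Of all genes, 17.7% were higher and 19.3% lower.

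The telocyte and sub-crypt lists each had 1 gene at least 1.5-fold higher and 1 lower, near the shares over all genes. Of 6 telocyte genes measured, Postn, the matrix protein periostin, was at 1252 CPM in colotomy and 467 CPM in sham (1.42), and Gli1, a hedgehog target, at 4.13 CPM in colotomy and 10.8 CPM in sham (-1.39, -2.39 to -0.52). Pdgfra, the growth factor receptor of telocytes and other fibroblasts, was at 251 CPM in colotomy and 304 CPM in sham (-0.28). Of 7 sub-crypt genes, Sfrp1, a WNT inhibitor, was at 726 CPM in colotomy and 181 CPM in sham (2.005), and Wnt2b had 5 UMIs in colotomy and 34 in sham (-1.16, -2.87 to 0.21). Rspo3, a WNT potentiator of the crypt niche, was at 19.6 CPM in colotomy and 29.5 CPM in sham (-0.58, -1.02 to -0.17). Sfrp1 is among the leading genes of the cluster led by Ptn, which is mostly of the colotomy library. Over the 7 members and the ligand, antagonist, receptor, SMAD and target lists together, 16 of 48 measured genes (33.3%) were at least 1.5-fold higher and 5 (10.4%) at least 1.5-fold lower, where 17.7% of all genes were higher and 19.3% lower. A count of 0 was set lower in the shares over all genes than for the listed genes. The listed and all-gene shares are therefore not by the same rule where a gene had 0 UMIs.

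Epithelial-like cells, a target tissue of the ligands, carried receptors and Id genes in both libraries. Different clusters hold most of the class in each library. One led by Dmbt1 and Clca3b had 1201 colotomy and 902 sham cells, and one led by Lypd8 and Clca4a had 320 colotomy and 1469 sham cells. Bmpr1a was at 53.3 CPM in colotomy and 38.5 CPM in sham epithelial-like cells, Bmpr2 at 62.0 and 42.7 CPM, and Smad1 at 121 and 57.5 CPM (log2 ratio 1.08). Id1 was at 112 CPM in colotomy and 93.2 CPM in sham (0.26, 0.01 to 0.50) and Id3 at 92.3 CPM in colotomy and 78.7 CPM in sham. Smad7 was lower, at 53.3 CPM in colotomy and 93.3 CPM in sham (-0.81). In goblet-like cells Id1 was at 39.8 CPM in colotomy and 41.8 CPM in sham (-0.07), Bmpr1a at 42.7 and 41.8 CPM and Smad1 at 122 and 66.0 CPM (0.89). Smad1 was thus higher in colotomy in fibroblast-like, epithelial-like and goblet-like cells. The 8 fibroblast markers, all above 0 in both libraries, summed to 2662 CPM in colotomy and 868 CPM in sham epithelial-like cells, and to 2052 CPM in colotomy and 347 CPM in sham goblet-like cells. The part of fibroblast RNA, and of the change of clusters, in these differences was not tested.

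Of the members themselves, 2 of 4 measured in epithelial-like cells were at least 1.5-fold higher and none was lower, where 22.9% of genes were higher and 16.4% lower. They were Grem1, at 22.3 CPM in colotomy and 1.85 CPM in sham (log2 ratio 3.59, 2.59 to 4.72), and Bmp4, at 7.44 and 3.87 CPM (0.94, -0.20 to 2.01). In goblet-like cells 3 of 4 were higher and none lower, where 15.2% of genes were higher and 13.4% lower. There Grem1 was at 14.5 CPM on 20 UMIs in colotomy and 0.589 CPM on 2 UMIs in sham (4.62, 2.58 to 7.76). Bmp4 was at 6.51 CPM in colotomy and 1.47 CPM in sham goblet-like cells, and Bmp2 at 5.79 and 2.94 CPM (0.97, -0.57 to 2.47). T and B cell-like cells, which should lack these genes, had Grem1 near or above these levels. It was at 16.2 CPM on 2 UMIs in colotomy and at 3.47 CPM in sham. In the same cells Bmp4 was at 8.09 CPM in colotomy and 3.15 CPM in sham. Bmp2 was at 16.2 CPM in colotomy and 2.08 CPM in sham, with 1 UMI of Bmp4 and 2 of Bmp2 in colotomy. In colotomy these lie above the goblet-like levels of both ligands and the epithelial-like level of Bmp4. The members counted as higher in epithelial-like and goblet-like cells therefore cannot be told apart from background in colotomy.

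In mesothelial-like cells 2 of 5 members were at least 1.5-fold higher and 1 lower, where 21.5% of genes were higher and 30.2% lower. Bmp4 was at 162.6 CPM in colotomy and 80.5 CPM in sham (log2 ratio 1.01, 0.31 to 1.67), and Bmp6 at 27.1 CPM on 4 UMIs in colotomy and 10.8 CPM on 14 UMIs in sham (1.32, -0.74 to 2.99). Chrdl1, at 0 of the colotomy UMIs against 52 in sham, was lower. With 0 set at 3 counts its log2 ratio was -0.99, and its interval reached up to -0.64. Bmp7, with 0 UMIs in colotomy and 12 in sham, was not called under that floor. The shares over all genes did not use the floor. Smad1 was at 102 CPM in colotomy and 36.4 CPM in sham mesothelial-like cells, and Id3 at 223.5 and 111 CPM. The class held 178 colotomy and 687 sham cells, and its 8 fibroblast markers summed to 13893 CPM in colotomy and 9361 CPM in sham. The part of fibroblast RNA in these values was not tested.

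Vascular endothelial-like cells were high in the receptors of endothelial BMP signalling. Acvrl1, the endothelial type I receptor ALK1, was at 132 CPM in colotomy and 133 CPM in sham, and Eng at 194 CPM in colotomy and 285.5 CPM in sham. Smad1 was at 444 CPM in colotomy (64 UMIs) and 127 CPM in sham, and Smad7 at 34.7 CPM (5 UMIs) in colotomy and 119 CPM in sham. Id1 was at 125 CPM on 18 UMIs in colotomy and 268 CPM in sham, and Id3 at 374 CPM in colotomy and 300.2 CPM in sham. The 6 lymphatic endothelial markers summed to 5270 CPM in colotomy and 2561 CPM in sham cells of the class, and its 7 vascular markers to 4383 CPM in colotomy and 3834 CPM in sham. The 8 fibroblast markers summed to 1498 CPM in colotomy and 426 CPM in sham. The part of these shifts in the differences was not tested. Each of Acvrl1, Eng, Bmpr2, Id1 and Id3 was highest in this class among the 13 classes in both libraries.

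**Figure D5:**
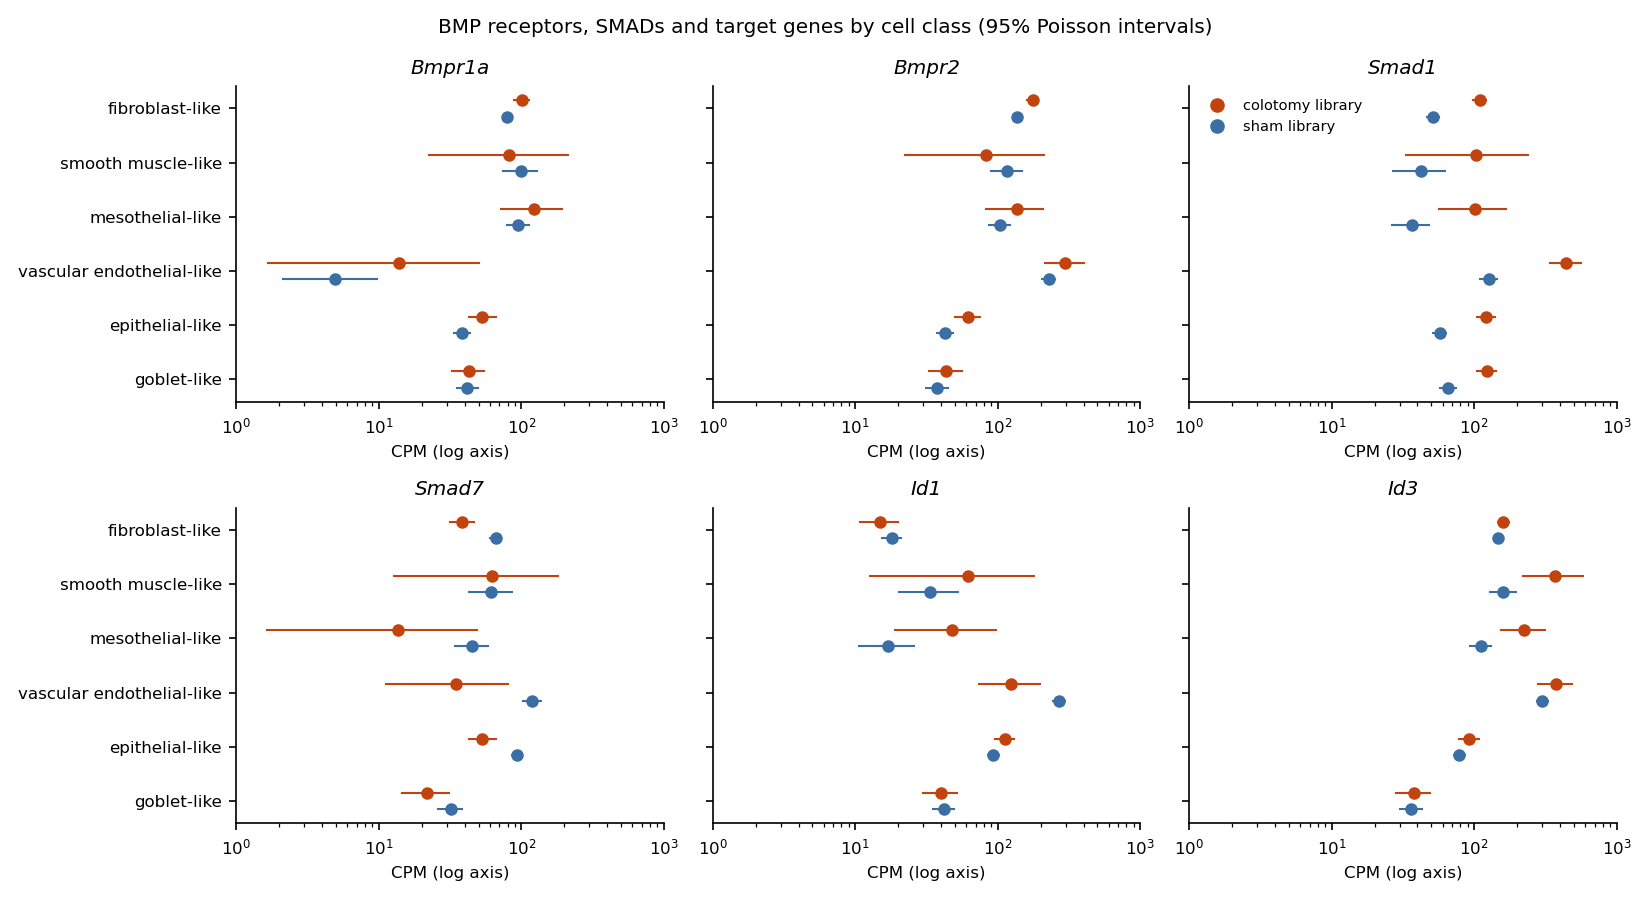
Levels (CPM, log axis) of Bmpr1a, Bmpr2, Smad1, Smad7, Id1 and Id3 in 6 cell classes, colotomy and sham, with 95% Poisson intervals on counts of 1 library each. Smad1 is higher in colotomy in each class shown, and Id1 is lower in colotomy in vascular endothelial-like cells, at 125 CPM against 268 CPM in sham.

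Genes with the pattern most like each member were ranked by Pearson r of log2(CPM + 10) over 26 points, 13 classes in each of 2 libraries, among 13784 genes. The points share their library and its depth, and r is a description. Bmp4 was most like Mpdz (0.94) and Flnc (0.94), Bmp5 like Hhip (0.96) and Gnao1 (0.95), and Bmp6 like Tshz3 (0.94) and Gulp1 (0.92). Grem1 was most like Col6a3 (0.90), Ccn5 (0.87) and Mmp3 (0.87), and Chrdl1 like Mab21l2 (0.93). Bmp2 reached 0.83 with Tmem47, and Bmp7 reached 0.90 with Rabl2.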

How the data were processed

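Single cells of pooled bowel and MAT were measured by droplet RNA sequencing with hashtag antibodies, 1 library per group. The authors deposited matrices of raw UMI counts per gene and barcode, made with Cell Ranger 6.0.0 per the file headers. Build mm10, STAR 2.5.1b, Seurat and Space Ranger are listed without a role in the submitters' processing notes, so which of them acted on these counts is not given in the sources used here. The 7 genes and all gene and marker lists were chosen with earlier results of these data known.

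A barcode was kept when it held 500 or more gene UMIs, 300 or more genes and a mitochondrial share below 20%, with 8728608 UMIs in colotomy and 70442705 in sham. Scanpy 1.11.5 clustered both libraries together without batch integration, on 2000 variable genes, 30 principal components, 15 neighbours and Leiden resolution 1, leaving out the 72 genes of the pathway and niche lists but not Adamdec1, Pi16 or Inmt. Of 23 clusters, 18 were named from 23 marker lists, in 13 classes. A marker counted when 10% or more of a cluster's cells held it and its CPM there was 2 times that of the remaining cells or more. To be named, a cluster had to show 3 or more markers of a list and no rival list. The share of a list required was 0.5, or 0.75 where none of it was among the 10 leading genes, a rule changed after clusters had been seen. Scrublet marked 0 barcodes in either library, so doublets were not removed by it, and hashtag doublets stayed in except in an alternative. The hashtags separated poorly and were not used to split tissues.

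UMIs were summed per class and library and divided by the class total (CPM). Intervals are exact: Poisson for levels, conditional binomial for ratios and Clopper-Pearson for shares, all 95%. They cover counting error only. A gene counted as higher or lower at 1.5-fold with at least 10 UMIs over both groups. Classes needed at least 100 cells in each library. For the 7 genes and the listed genes a count of 0 was set at 3 counts. No fold was read where the other level was at or under that floor. In the shares over all genes a count of 0 was set below 1 count, so more genes with a 0 pass 1.5-fold there. All 7 genes were named. From the pathway lists the 8 largest and 8 smallest fibroblast-like ratios among 46 genes with at least 50 UMIs were named, of which 1 is not reported here; other listed genes given were chosen after their values were seen. For likeness, the 3 genes with the highest r were taken. The ratio code was tested on simulated counts. Alternatives are in the closing section, 5 of them chosen after seeing the data. Python 3.11.15, numpy 2.4.6, scipy 1.17.1 and pandas 2.3.3 were used.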

Additional observations from a re-analysis of the deposited data

Results flagged for a closer look

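Grem1 was also present in cells that no comparison used, those of 2 clusters that carried fibroblast markers together with macrophage or erythroid genes and so were left unnamed. Its level there was 144 CPM in the 292 colotomy cells (39 UMIs, 103 to 197) and 61.4 CPM in the 475 sham cells (60 UMIs, 46.8 to 79.0), near the levels of fibroblast-like cells in sham and below them in colotomy. Whether these barcodes hold more than 1 cell was not tested.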

How the results depend on the processing

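No paired analysis was possible because each group is 1 library and no result comes from a test. Depth limits Bmp2, Bmp5, Bmp7 and Chrdl1, with 5 to 29 UMIs in colotomy fibroblast-like cells. Of 321 main values under alternatives, 280 moved by no more than their counting error, 37 moved further and 4 changed sign; of 162 others, 144, 15 and 3. The cause was not tested unless named. In log2, colotomy over sham in fibroblast-like cells: with at least 1000 UMIs and 500 genes Bmp7 was -1.22. Grem1 was 1.62 without the highest Scrublet scores and 1.62 as a mean over cells, and 1.58 with classes from summed marker UMIs. In cells with Y-linked RNA and no Xist, Bmp4 was -0.20 and Grem1 2.53, and 8 pathway genes were lower. With 0 colotomy UMIs set at 3 counts, Bmp2 was -0.60 and Bmp5 -0.80 there, with intervals up to -0.24 and -0.45. With free RNA of T and B cell-like cells subtracted, Bmp2 was -3.24 and Bmp7 -2.78, each against a floor in colotomy, and 9 pathway genes were lower; with all epithelial and immune classes Bmp2 was -2.90. In the cluster led by Clec3b, Bmp6 was 1.75, Bmp7 1.08 and Grem1 0.74. In that led by Ptn, Bmp2 was 0.74, Bmp5 -0.68, Bmp6 -0.68, Grem1 1.43 and Chrdl1 -0.75, by construction on few sham cells. Without cells of the 3 state genes, Bmp4 was 0.45 and Grem1 1.55.

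For state over none in colotomy, Bmp4 in Adamdec1 cells was 3.596 with 2 UMIs required and Grem1 in Pi16 cells -0.47 with at least 1000 UMIs. Pi16 cells with Y-linked RNA and no Xist gave Bmp4 0.22, Bmp6 -0.13, Bmp7 1.29 and Chrdl1 -1.45, all on few UMIs. In sham Adamdec1 cells, Bmp2 was 2.56 with status read at 500 UMIs, and Bmp4 3.75 and Grem1 1.69 at resolution 2. Those with Y-linked RNA gave Bmp6 3.01, Bmp7 5.47 and Grem1 1.37. With free RNA subtracted Bmp7 was 4.94 in Adamdec1 and 3.32 in Pi16 cells. Sham Pi16 cells with Y-linked RNA gave Bmp6 1.76 and Bmp7 3.08. In sham Inmt cells Grem1 was -0.95 and Chrdl1 -0.79 with 2 UMIs required, and Chrdl1 0.0604 with Y-linked RNA. Bmp4 in plasma cell-like cells was -0.31 at resolution 2, and the Bmp7 share ratio 0.63 at 500 UMIs.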

Other observations

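Hashtag 1, the bowel tag in the submitters' pairing, and hashtag 2, the MAT tag, were read in few fibroblast-like cells. Grem1 was at 432 CPM in 194 colotomy and 77.6 CPM in 228 sham cells with tag 1, and at 181 CPM in 377 colotomy and 22.0 CPM in 142 sham cells with tag 2. Of the 3543 colotomy and 5129 sham cells, 2972 and 4759 had neither tag, where Grem1 was at 201 and 61.1 CPM. The level was higher in colotomy and higher with tag 1 in these sets. The tags separated by under 1 SD in both libraries. Of fibroblast-like cells with either tag, 34.0% in colotomy and 61.6% in sham had tag 1. The part of the mix of bowel and MAT in the differences between libraries was not tested.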
